A study of Rosa rugosa with 9 samples.

Results

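The basic helix-loop-helix (bHLH) transcription factors were examined in the young roots of an ornamental rose, Rosa rugosa 'Zizhi', grown with phosphate or with part of the phosphate replaced by humic acid. Members were taken by name: a gene was counted when its Swiss-Prot description in the deposited table contained "transcription factor bHLH", "transcription factor MYC" or "basic helix-loop-helix". A further matching gene is not reported here. This gave 94 of the 47983 genes in the table, with 62 distinct descriptions, nearly all carried over from Arabidopsis thaliana. Plants stood in sand in a greenhouse for 37 weeks with 200 ml of Hoagland's solution per pot each week. The phosphate salt was ammonium dihydrogen phosphate (NH4H2PO4). The control group, CK, was fed 0.092 g of it without humic acid. In HA1 the dose was 0.0552 g of salt plus 0.0368 g of humic acid, and in HA2 it was 0.0368 g plus 0.0552 g. The salt thus stood at 100%, 60% and 40% of the control amount. Phosphate, ammonium and humic acid changed together, so their effects cannot be told apart. Each group had 3 libraries, and the labels do not say that these came from separate plants, so p-values cover only the spread among the samples at hand, which may be technical.

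A bHLH protein pairs through its helix-loop-helix region with another bHLH protein and touches DNA with the basic region before it, usually at a short palindromic element called the E-box. Because the proteins act as dimers, the family works as a set of partners, and members without a working basic region can block the others. In roots, from work mainly in Arabidopsis, members of the family carry the jasmonate response (the MYC proteins), govern iron uptake, pattern the vascular cylinder with TMO5 and LHW, and drive root hair growth, a response to low phosphate. Names and roles below come from the closest Swiss-Prot protein, not from experiments in rose.

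The domain annotation of the table, which the choice by name did not use, bore the label out for most members. A helix-loop-helix DNA-binding domain was listed for 56 members and the N-terminal domain of MYC-type bHLH proteins for 17, which makes 73 of 94. No domain was listed for 19 members. Among them were bHLH68 (Rru02G047880), bHLH110 (Rru06G052800), bHLH111 (Rru04G055650), bHLH147 (Rru04G037360) and bHLH78 (NewGene_1394), which are named below among the genes that changed. For these the label rests on the description alone. The other 2 carried a different domain: the bHLH140 gene Rru03G012510 a domain of the scavenger mRNA-decapping enzyme, and the BHLH089 gene Rru03G026920 an actin-binding cofilin domain. Another 57 genes of the table had one of the bHLH domains under other names, such as PIF3 or UNE12, and served for comparison.

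Libraries held 33847262 to 42988605 counts. Values below are CPM (counts scaled to a common library size) after TMM scaling, on which 3 counts are 0.0637 to 0.0903 CPM, and floors of this kind cover counting error only. The root label was checked on 19 marker genes. The root patterning gene SHORT-ROOT lay at 24.7 to 38.2 CPM and a Casparian strip membrane protein 1 gene (Rru03G023310), of the endodermis, at 26.6 to 88.1 CPM, while 2 nitrate transporter 2 genes (Rru02G077560 and Rru04G044080) had 0 counts in every library. The summed level of the root markers was 151 to 206 CPM in the controls, 199 to 253 in HA1 and 214 to 281 in HA2. That of 58 green tissue markers, of which 7 had 0 counts throughout, was 122.1 to 234, 88.1 to 120 and 55.2 to 152 CPM. The part of such shifts in tissue makeup in the results below was not tested. In bulk RNA, fewer cells of a type and less RNA per cell cannot be told apart. HA2 replicate 3 stood apart from its group: on the first principal component of all genes, which carried 43.9% of the variance, it lay at -45.8, inside the CK range of -131 to -42.3, while the other HA2 libraries lay at 66.3 and 39.7. The counts of calls in HA2, and the values of the members that led there by p-value, are therefore also given without it.

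Most of the family was expressed in these roots, and a few members supplied much of its RNA. Of the 94 genes, 13 had 0 counts in every library and 16 more fell below the low-count filter, with at most 31 counts over all 9 libraries. The remaining 65 were tested. On the length-corrected scale of the deposited FPKM values, 34 members had a mean of at least 10, 21 lay between 1 and 10, and 39 below 1. The median over the tested members was 11.9 FPKM, against 4.6 over all genes tested. The members below the filter included all 3 genes described as bHLH84 and the 1 described as bHLH086, which are root hair regulators in Arabidopsis, all 4 jasmonate repressor genes (3 described as bHLH14 and 1 as bHLH3), and 7 of 11 MYC genes. Root hair genes of the family were thus at or near 0 in these samples under those names.

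By the mean over all 9 libraries, 3 members were nearly level at the top of the family. They were a MYC2 gene (Rru07G027980) at 294.7 FPKM, bHLH35 (Rru04G012470) at 293.4 and bHLH92 (Rru04G004230) at 290.7. MYC2 is the central activator of jasmonate responses. The MYC2 gene lay at 389, 240 and 454 FPKM in the controls, 146.5, 213 and 224 in HA1, and 255, 294 and 436 in HA2. It had the highest group mean of the 3 in CK and the lowest in HA1 and HA2. bHLH35 had group means of 173 ± 97.7 FPKM (SD, n = 3) in CK, 278 ± 80.97 in HA1 and 430 ± 123 in HA2. bHLH92, which is induced by osmotic stress in Arabidopsis, had means of 255 ± 117, 233 ± 71.8 and 385 ± 69.4 FPKM. The ranges of these 3 genes overlapped within each group, but some orders held library by library. In every CK library bHLH35 was the lowest of the 3. In every HA1 library bHLH35 lay above bHLH92 and bHLH92 above MYC2. In HA2 the order differed between libraries. By the same mean over 9 libraries a second MYC2 gene (Rru01G037330) and bHLH167 (Rru07G015040) followed, at 105.8 and 101.1 FPKM.

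**Figure D1:**
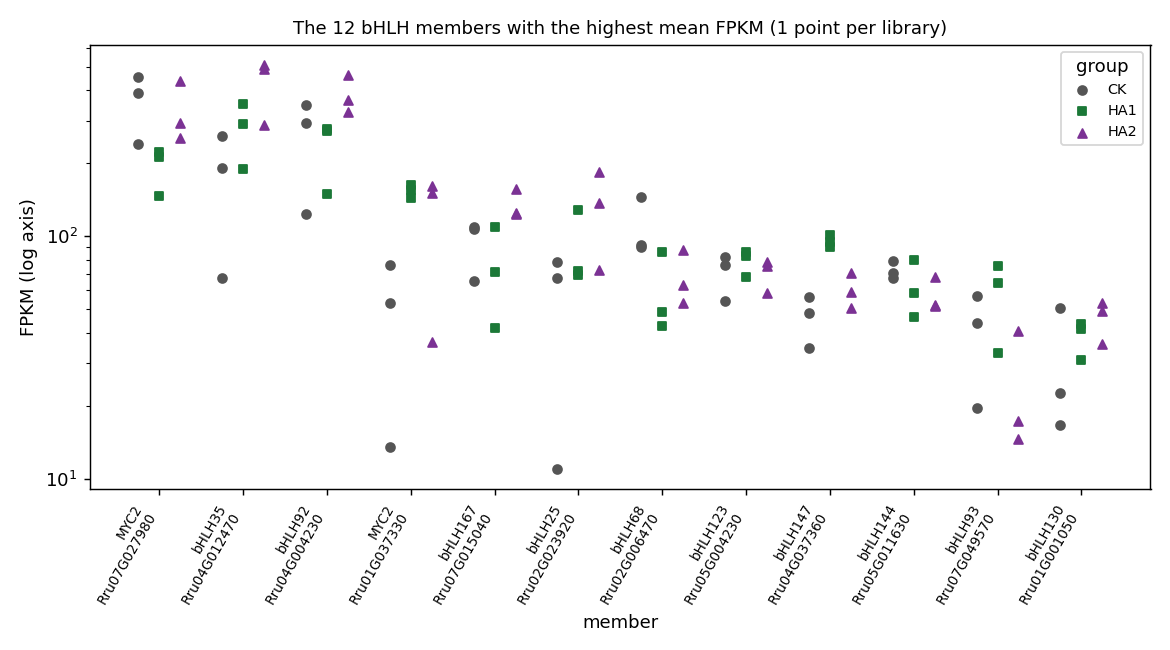
FPKM on a log axis of the 12 members with the highest mean over the 9 libraries, 1 point per library. MYC2 (Rru07G027980), bHLH35 and bHLH92 have the 3 highest means, and MYC2 (Rru01G037330) has its lowest values in CK and in HA2 replicate 3.

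These 3 highest members held 27.0% to 49.1% of all member counts, depending on the library. The whole family took 0.327% to 0.360% of all counts in CK, 0.289% to 0.351% in HA1 and 0.369% to 0.395% in HA2. The HA2 libraries thus lay above all others in this share, HA2 replicate 3 included. Without the 3 highest genes the rest of the family summed to 1979 to 2073 CPM without TMM scaling for CK, 1952 to 2213 for HA1 and 1878 to 2183 for HA2, which overlap.

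Setting HA1 against CK shows the response when 40% of the phosphate salt is replaced. The family was rearranged in both directions: 10 members rose, 12 fell and 43 did not pass. The 22 that passed make 33.8% of the 65 tested members, and 21.2% of all 25260 genes tested passed the same test, the quasi-likelihood test of edgeR at a Benjamini-Hochberg adjusted p of 0.05. Below, a gene passed, rose or fell by this edgeR test unless DESeq2 is named. By direction the shares were 15.4% higher, against 10.9% of all genes, and 18.5% lower, against 10.3%. The same shares of all genes apply to the counts of risers and fallers in the lists below, which were not tested as sets. The median log2 fold change of the members was 0.03 and that of all genes -0.02, which lie close together. The spread of the members was wider: the middle 50% of members lay between -0.78 and 0.99, and of all genes between -0.59 and 0.57. The tested members were also more highly expressed than the genes at large, as given above, and the part of expression level in this was not tested. Groups did not overlap in 34 members (52.3%), against 45.0% of all genes. An unadjusted p under 0.05 was found for 34 members (52.3%), against 38.4%.

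The calls rest on few libraries. Their edgeR adjusted p lay between 0.0103 and 0.0487, and 20 of the 22 had no overlap between CK and HA1. The genes were called on these same values, which favours such separation, so it is no separate check. Without CK replicate 1 none of the 22 passed, and none of all genes tested did (0.0%). Leaving out CK replicate 3 left 3 calls, as did leaving out HA1 replicate 2, and in each case these were bHLH93 (Rru02G024250), bHLH68 (Rru02G047880) and bHLH30 (Rru04G046650). The 3 calls were 4.55% of the members tested in each setting, and of all genes 2.58% and 3.17% passed. There were 9 member calls when HA1 replicate 1 was left out (13.6% of members, against 6.49% of all genes). For HA1 replicate 3 there were 12 (18.2%, against 9.37%). Leaving out HA2 replicate 3 gave 31, against 27.1%. The member counts thus fell and rose with those of the whole table. DESeq2 called 34 members (52.3%), among them all 22 of edgeR, against 29.9% of all genes it tested. The 12 further members were bHLH25 (Rru07G001050), bHLH47, bHLH94 (Rru02G026540), bHLH117, bHLH162 (Rru02G038920), MYC2 (Rru01G037330) and MYC3 (Rru07G008780), which were higher in HA1, and bHLH48, bHLH51, bHLH63, bHLH130 (Rru03G028420) and bHLH155, which were lower.

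**Figure D2:**
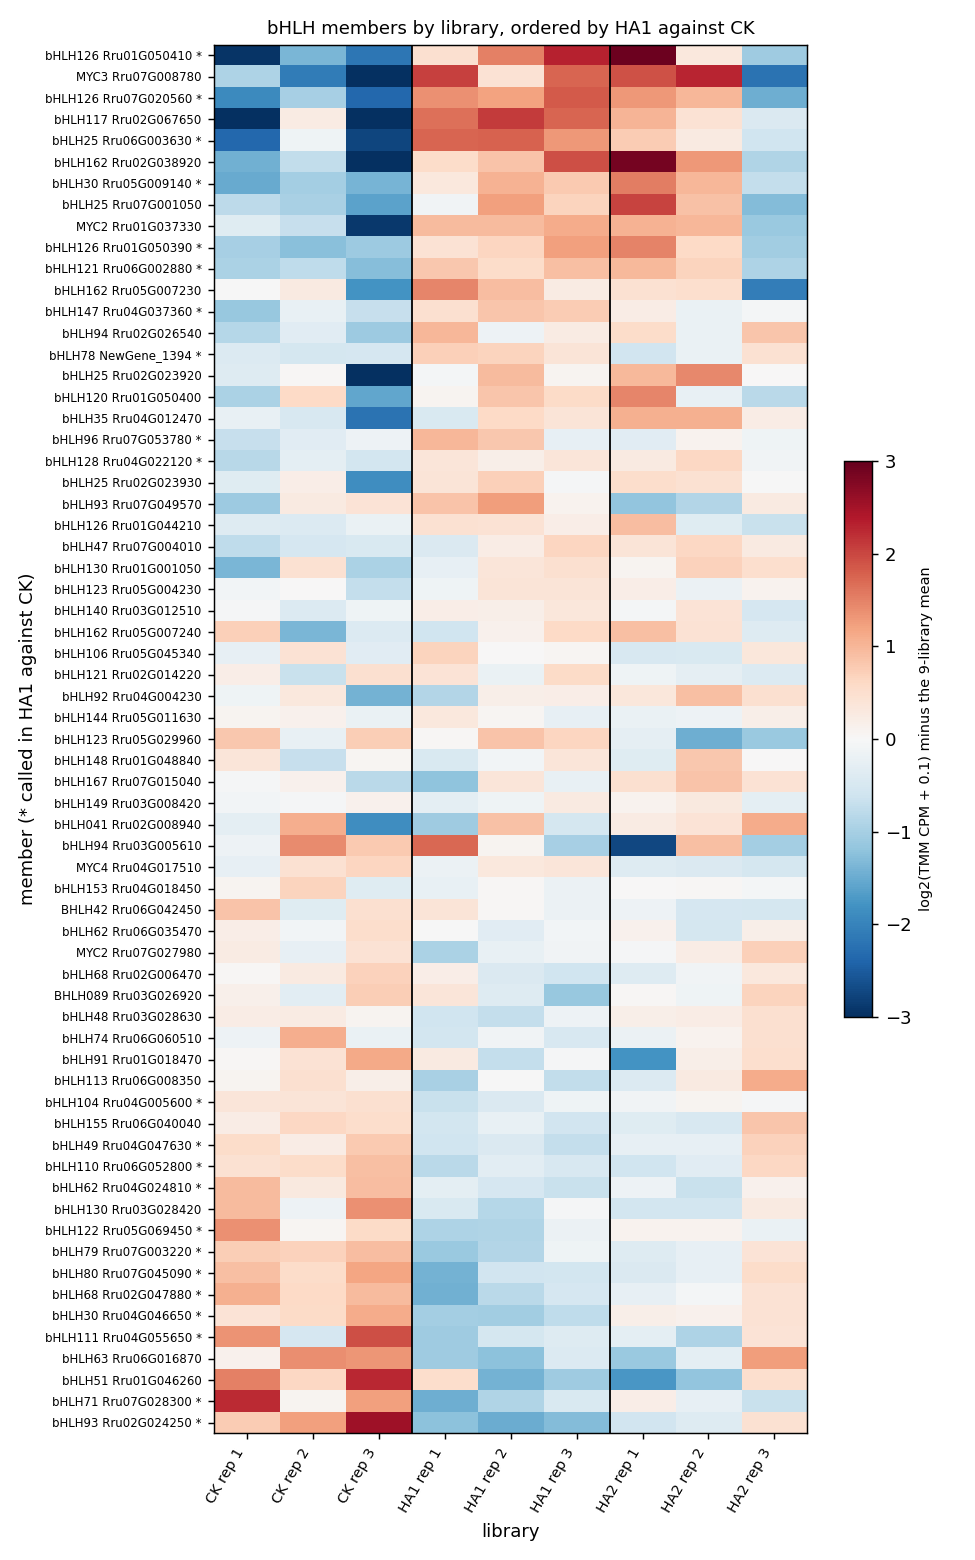
Each row is 1 of the 65 tested members and each column 1 library. Colour is log2(CPM + 0.1) minus the mean of the 9 libraries, with the scale ending at 3 in either direction, rows are ordered by the log2 fold change of HA1 against CK, and an asterisk marks an adjusted p under 0.05. At the top and bottom ends HA2 replicates 1 and 2 mostly carry the colour of HA1 and HA2 replicate 3 is often nearer to CK.

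Of 8 tested genes in the iron group, 2 rose, 1 fell and 5 did not pass. In Arabidopsis, bHLH121 and bHLH104 switch on the iron deficiency response, bHLH47 (POPEYE) restrains it, and bHLH25 and its relatives promote the breakdown of its regulator FIT. A bHLH25 gene (Rru06G003630) lay at 8.75, 41.4 and 6.61 CPM in the controls, 152, 154 and 111 in HA1, and 76.8, 54.8 and 29.8 in HA2. CK replicate 2 was high within its group, yet all HA1 values lay above it. This gene rose by 2.88 ± 0.68 in HA1 (log2 fold change ± SE, n = 3 per group, edgeR adjusted p = 0.0230). The value was 4.14 without CK replicate 2 and went down to 2.45 over the other alternatives. The call was kept in 5 of 9 fits that left out a library. It was lost without CK replicate 1, CK replicate 3, HA1 replicate 1 or HA1 replicate 2.

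The bHLH121 gene Rru06G002880 lay at 5.80, 6.58 and 4.59 CPM in the controls and at 19.7, 16.6 and 21.2 in HA1. It was at 22.3, 17.8 and 5.90 CPM in HA2, where replicates 1 and 2 lay near HA1 and replicate 3 lay within the CK range. The gene rose by 1.76 ± 0.42 in HA1 (edgeR adjusted p = 0.0229). A second bHLH121 gene (Rru02G014220) was at 5.48 ± 2.07 CPM in the controls and 6.40 ± 1.71 in HA1 and did not pass. The bHLH104 gene (Rru04G005600) went the other way, from 25.8, 26.1 and 27.9 CPM in the controls to 12.5, 14.7 and 18.3 in HA1. It fell by 0.81 ± 0.17 (edgeR adjusted p = 0.0174) and lay between the other groups in HA2, at 18.6, 21.2 and 19.3 CPM. The bHLH47 gene (Rru07G004010) was at 11.6, 13.9 and 14.2 CPM in the controls, 14.4, 22.8 and 30.7 in HA1, and 25.7, 30.4 and 23.5 in HA2. Its CK values were the lowest of the 3 groups, but edgeR did not call it (adjusted p = 0.0619 in HA1 and 0.134 in HA2 against CK). DESeq2 did in both, with adjusted p of 0.0349 and 0.0142.

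The other 3 bHLH25 genes had log2 fold changes of 0.85 to 2.00 in HA1 without passing edgeR, and DESeq2 called Rru07G001050 (2.02, adjusted p = 0.0355). One of the 3 (Rru02G023920) was the most abundant of the 4, at 87.7 ± 64.0 CPM in the controls, 182 ± 73.1 in HA1 and 262 ± 118 in HA2. It bears a neighbouring number to a second bHLH25 gene (Rru02G023930), and counts of near-identical neighbours are uncertain because the handling of shared reads is not given in the sources used here. Among 22 tested genes of iron uptake and storage outside the family, 3 rose and 6 fell in HA1. The 3 included a metal transporter gene, Nramp2 (Rru06G059620), which rose by 1.31 ± 0.22 (edgeR adjusted p = 0.0112). The 6 included nicotianamine synthase (Rru03G008300), which makes a metal chelator and fell by 2.34 ± 0.29, and BRUTUS (Rru01G015830), which marks iron-response bHLH proteins for breakdown in Arabidopsis and fell by 1.12 ± 0.18, with edgeR adjusted p of 0.00911 and 0.0103.

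In the vascular group, which holds relatives of TMO5 and LHW, 1 of 5 genes rose and 1 fell, and the same description stood on both. TMO5 and LHW form a dimer that drives divisions of young vascular cells and, in Arabidopsis, tunes root hair density under low phosphate. bHLH30 is a close relative of TMO5. One bHLH30 gene (Rru05G009140) lay at 9.70, 13.5 and 10.5 CPM in the controls and 34.3, 57.1 and 47.7 in HA1, and rose by 2.05 ± 0.48. The other (Rru04G046650) lay at 2.34, 2.64 and 3.86 CPM in the controls and 0.799, 0.782 and 0.976 in HA1, and fell by 1.78 ± 0.29. Neither gene overlapped between the groups, and their edgeR adjusted p were 0.0229 and 0.0104. The LHW-like gene bHLH155 (Rru06G040040) was at 95.5 ± 13.7 CPM in the controls and 50.7 ± 7.01 in HA1 (edgeR adjusted p = 0.0802). The bHLH51 gene (Rru01G046260) was at 8.11 ± 4.36 and 1.95 ± 1.58 CPM and had an edgeR adjusted p of 0.0800.

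The flowering-linked FBH group, whose Arabidopsis members activate the flowering gene CONSTANS and respond to drought, split as well. Of 5 genes, bHLH128 (Rru04G022120) rose by 0.86 ± 0.22, from 35.1, 50.9 and 42.8 CPM to 80.6, 71.5 and 80.9. bHLH80 (Rru07G045090) fell by 1.71 ± 0.33, from 28.3, 21.9 and 34.2 CPM to 5.59, 10.1 and 10.2. bHLH122 (Rru05G069450) fell by 1.41 ± 0.34, from 29.6 ± 13.8 to 11.1 ± 3.55 CPM. Their edgeR adjusted p were 0.0286, 0.0147 and 0.0249, and none overlapped between the groups. The 2 bHLH130 genes did not pass edgeR, with log2 fold changes of 0.63 (Rru01G001050) and -1.27 (Rru03G028420). For the latter the edgeR adjusted p was 0.0537, and it was 0.0209 with a replicate block and 0.0152 with DESeq2.

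The list of members tied to brassinosteroid growth and light had 2 risers and 3 fallers among 11 tested genes and a median log2 fold change of -0.66. bHLH147 (Rru04G037360) belongs to the atypical AIF group, whose members counteract growth driven by brassinosteroid in Arabidopsis. It lay at 22.7, 42.5 and 30.9 CPM in the controls, 69.1, 88.0 and 84.4 in HA1, and 58.1, 43.3 and 47.6 in HA2. HA1 was the highest group with no overlap, and the gene rose by 1.33 ± 0.24 against CK (edgeR adjusted p = 0.0129). A bHLH78 gene (NewGene_1394) rose by 1.13 ± 0.32, from 1.47 ± 0.07 to 3.22 ± 0.41 CPM (edgeR adjusted p = 0.0359). That call was kept in 2 of 9 fits that left out a library. It was lost with a replicate block and without the low-count filter.

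The fallers of that list were bHLH62, bHLH79 and bHLH49. bHLH62 (Rru04G024810) fell by 1.24 ± 0.26, from 60.2, 37.7 and 58.8 CPM to 25.04, 21.8 and 19.3. bHLH79 (Rru07G003220) fell by 1.46 ± 0.33 and bHLH49 (Rru04G047630), an activator of cell elongation in Arabidopsis, by 1.12 ± 0.28. Their edgeR adjusted p were 0.0161, 0.0199 and 0.0252. bHLH63 (Rru06G016870), the partner of cryptochrome 2 known as CIB1, had values of 2.97, 7.31 and 6.96 CPM in the controls and 1.26, 1.11 and 2.04 in HA1, which did not overlap, and an edgeR adjusted p of 0.0523. Of 9 phytochrome and cryptochrome genes outside the family 1 rose and 3 fell. Of 13 brassinosteroid genes 3 rose and 2 fell.

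**Figure D3:**
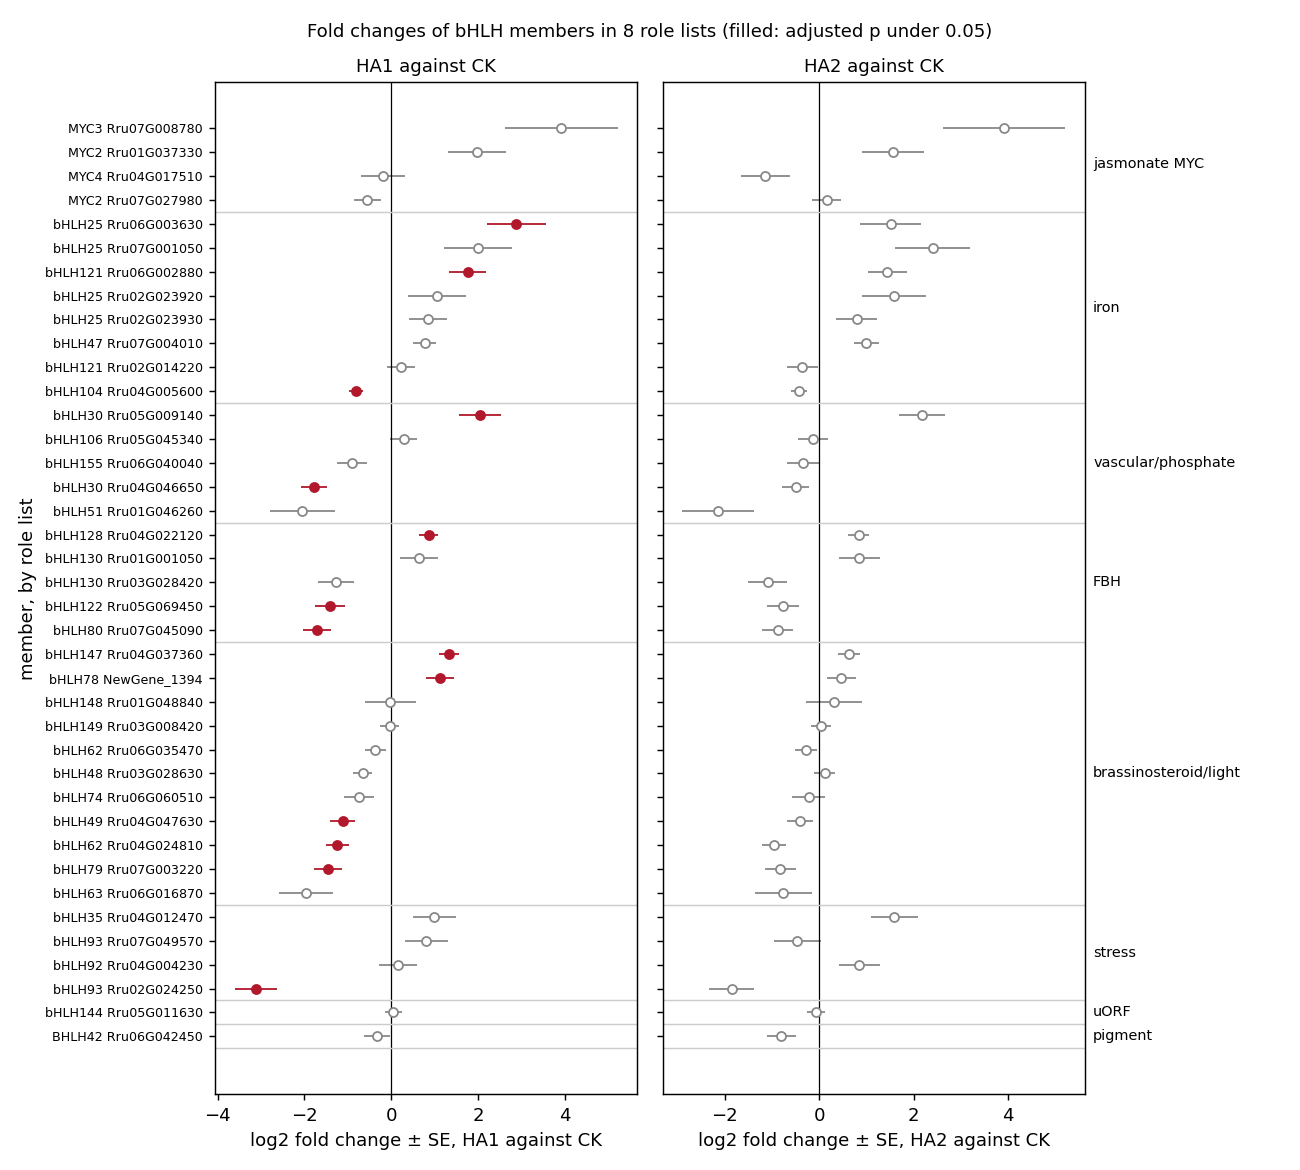
Log2 fold change with its SE for the 39 tested members of 8 role lists, in HA1 against CK (left) and HA2 against CK (right), which share the CK libraries. Filled red points passed at an adjusted p under 0.05. The lists hold filled points on both sides of 0 on the left and none on the right.

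The largest decrease of the family was that of a bHLH93 gene (Rru02G024250), whose Arabidopsis counterpart is needed for flowering in short days. It lay at 10.5, 14.6 and 36.5 CPM in the controls and at 2.56, 2.11 and 2.41 in HA1. The HA1 libraries were close together and the CK libraries were not. The gene fell by 3.12 ± 0.49 (edgeR adjusted p = 0.0103) and by 2.44 without CK replicate 3. A second bHLH93 gene (Rru07G049570) was at 55.2 ± 25.6 CPM in the controls and 96.6 ± 36.1 in HA1 and did not pass.

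Among members of no role list 4 of 26 rose and 4 fell. All 3 bHLH126 genes that passed rose, and 2 of them had the largest increases among the members that passed. The first (Rru07G020560) went from 3.08, 5.87 and 2.23 CPM in the controls to 30.7, 27.5 and 42.3 in HA1, a rise of 3.17 ± 0.66 (edgeR adjusted p = 0.0164). The second (Rru01G050390) rose by 1.92 ± 0.52, from 7.77 ± 0.72 to 29.5 ± 8.80 CPM (edgeR adjusted p = 0.0337). Only 2 of 9 fits that left out a library kept this second call. In HA2 the second lay at 47.2, 25.6 and 8.06 CPM. The first had 4.19 CPM in HA2 replicate 3, and that library was the lowest of its group for both genes.

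The third (Rru01G050410) was near 0 in CK, at 0, 0.198 and 0.0706 CPM, and lay at 0.982, 2.11 and 3.70 in HA1. Its fitted log2 fold change of 4.70 ± 1.33 (edgeR adjusted p = 0.0380) depends on the prior count added by the fit. Leaving out CK replicate 1 gave 4.05 (edgeR adjusted p = 0.109), and leaving out CK replicate 2 gave 5.89. The call was kept in 4 of 9 fits that left out a library and lost with a replicate block. This gene bears a neighbouring number to the second bHLH126 gene and to a bHLH120 gene (Rru01G050400), which was at 0.573 ± 0.540 CPM in the controls and 1.13 ± 0.31 in HA1 and did not pass. The fourth bHLH126 gene (Rru01G044210) reached at most 1.16 CPM and did not pass.

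bHLH96 (Rru07G053780) rose by 0.99 ± 0.31 with overlapping values (edgeR adjusted p = 0.0487). Its call was kept in 1 of 9 fits that left out a library. It was lost with a replicate block, without the low-count filter and with only the 6 libraries compared. The fallers without a role list were bHLH68, bHLH110, bHLH111 and bHLH71. bHLH68 (Rru02G047880), a regulator of abscisic acid balance in Arabidopsis, lay at 50.5, 36.9 and 46.8 CPM in the controls, 8.90, 13.8 and 16.96 in HA1, and 20.5, 23.4 and 32.5 in HA2. The 3 groups did not overlap one another, and the gene fell by 1.76 ± 0.28 in HA1 (edgeR adjusted p = 0.0103). bHLH110 (Rru06G052800) fell by 1.17 ± 0.32, from 43.9 ± 7.57 to 19.5 ± 3.24 CPM (edgeR adjusted p = 0.0327). bHLH111 (Rru04G055650), whose values overlapped, and bHLH71 (Rru07G028300) had log2 fold changes of -1.92 ± 0.59 and -2.57 ± 0.61 and also fell, with edgeR adjusted p of 0.0473 and 0.0229. The bHLH111 call was kept in 2 of 9 fits that left out a library. A replicate block lost it, as did a fit on only the 6 libraries compared. The value for bHLH71 was -1.89 without CK replicate 1.

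None of the 4 tested MYC genes passed edgeR in HA1, and DESeq2 called MYC2 (Rru01G037330) and MYC3 (Rru07G008780), with adjusted p of 0.00808 and 0.00371. The second MYC2 gene (Rru01G037330), which another database column of the table names MYC3, was lower in every CK library than in any HA1 library. It lay at 103.7, 82.5 and 17.9 CPM in the controls, 258, 257 and 286 in HA1, and 274, 266 and 61.4 in HA2. Its log2 fold change was 1.97 ± 0.67 (edgeR adjusted p = 0.0635), and with a replicate block 2.42 ± 0.57 (edgeR adjusted p = 0.0303). The gene described as MYC3 (Rru07G008780), a partner of MYC2 in the jasmonate response, was at 0.382, 0.113 and 0 CPM in the controls and 3.70, 1.14 and 2.96 in HA1 (edgeR adjusted p = 0.0598). The most abundant MYC2 gene (Rru07G027980) was at 763, 542 and 869 CPM in the controls and 336, 551 and 597 in HA1, which overlap on this scale (edgeR adjusted p = 0.223). The lone MYC4 gene past the filter (Rru04G017510) stayed near the floor, at 0.303 ± 0.119 CPM in the controls.

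Some TIFY proteins are the JAZ repressors that act with MYC proteins. A list of TIFY proteins and jasmonate receptors, taken by name, held 12 tested genes, of which 2 rose and 2 fell in HA1. It may include TIFY proteins that are not JAZ repressors. TIFY 10A (Rru02G010750), a repressor that binds MYC2 and is itself switched on by jasmonate, rose by 1.96 ± 0.48, from 449 ± 283 CPM in the controls. TIFY 6B (Rru07G001270) rose by 1.86 ± 0.36 and TIFY 8 (Rru06G063110) fell by 1.47 ± 0.23. Their edgeR adjusted p were 0.0251, 0.0144 and 0.0103. Among 27 jasmonate synthesis genes 6 rose and 1 fell, and their median log2 fold change was 1.52, beside -0.02 over all genes. Allene oxide synthase 1 (Rru06G051490) rose by 2.15 ± 0.33 and allene oxide cyclase (Rru04G046530), the next enzyme of the pathway, by 3.07 ± 0.70, with edgeR adjusted p of 0.0100 and 0.0208.

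**Figure D4:**
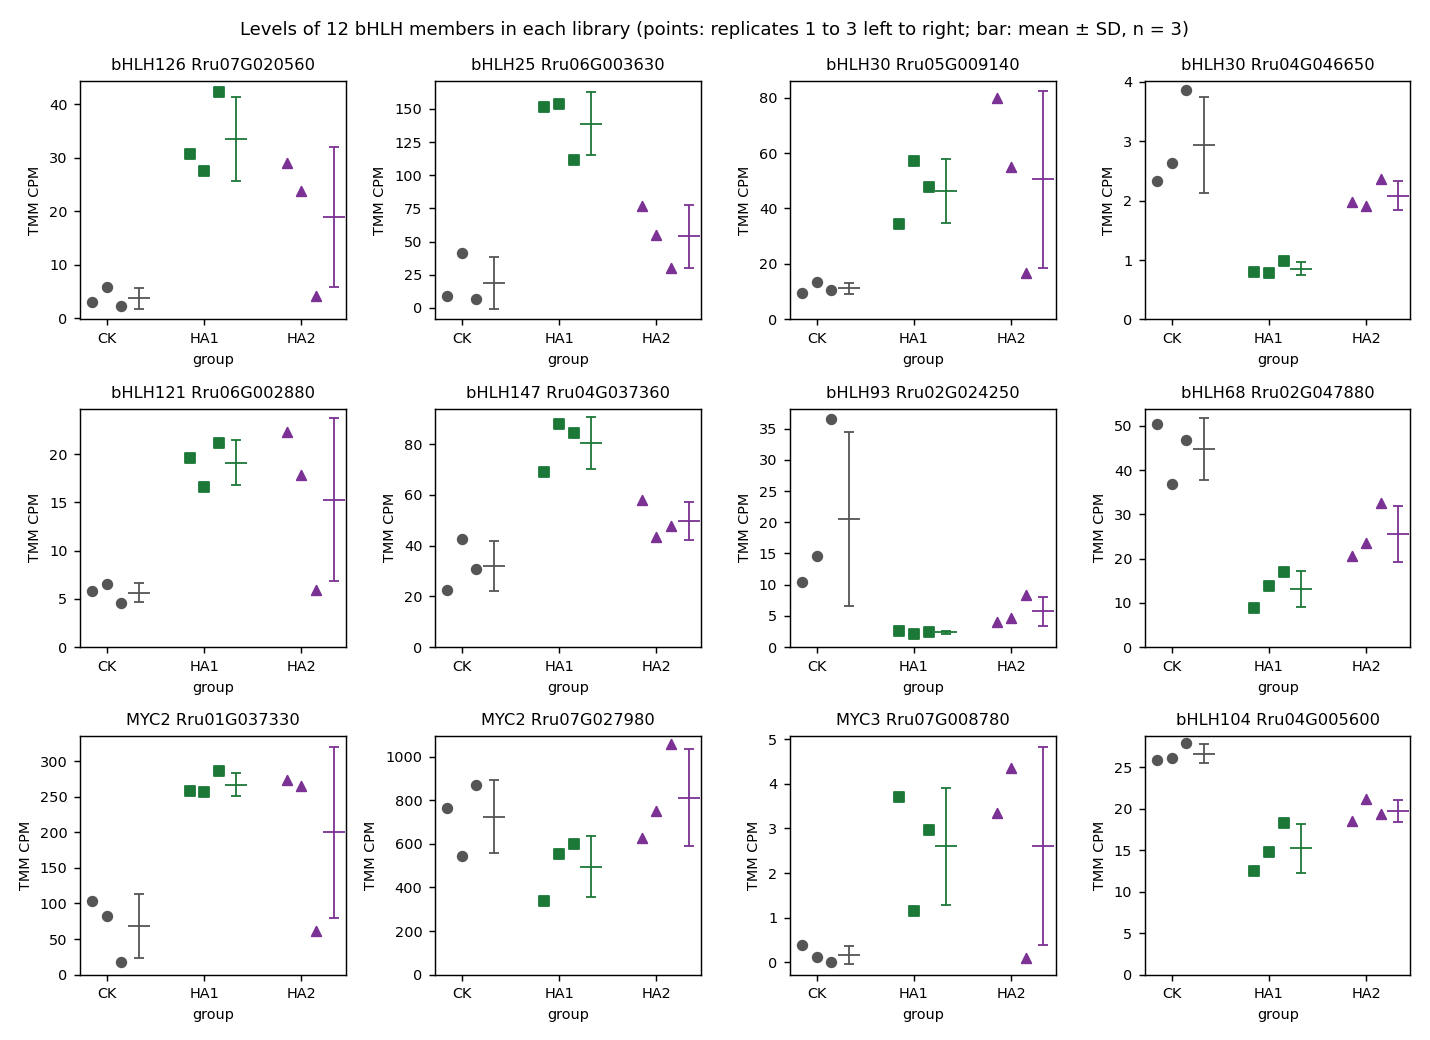
TMM-scaled CPM of 12 members in each library, with the mean and SD of each group beside the points. In bHLH126, bHLH30 (Rru05G009140), bHLH121, MYC2 (Rru01G037330) and MYC3 the point of HA2 replicate 3 lies low, near the CK points, while the other HA2 points lie near those of HA1.

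A bHLH117 gene (Rru02G067650) sat just outside the threshold with one of the widest gaps of the family. Its levels were 1.80, 24.1 and 1.93 CPM in the controls, 63.6, 86.7 and 67.7 in HA1, and 40.9, 27.5 and 15.1 in HA2. CK replicate 2 was high in its group and still below all HA1 values, and the log2 fold change was 2.97 ± 0.94 (edgeR adjusted p = 0.0507). Without CK replicate 2 it was 5.24 ± 0.47 (edgeR adjusted p = 0.00399). DESeq2 called the gene (adjusted p = 0.00174), as did edgeR with a replicate block (adjusted p = 0.0313).

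The pigment and SACL groups, with 1 gene each, showed no change that passed. The kiwifruit-named pigment regulator BHLH42 (Rru06G042450) was at 62.8 ± 24.7 CPM in the controls, 50.4 ± 10.2 in HA1 and 36.0 ± 5.43 in HA2. Of all genes tested, 10.9% rose and 10.3% fell in HA1, which stands beside the counts of the lists given here. Of 51 flavonoid and anthocyanin enzyme genes 4 rose and 7 fell in HA1. bHLH144 (Rru05G011630), of a group whose members are held back in translation by a short upstream reading frame in Arabidopsis, was at 53.4 ± 6.17, 55.3 ± 10.8 and 51.3 ± 7.35 CPM. Of 28 tested genes of root hair walls and growth, 4 rose and 2 fell. Among the 57 genes with a bHLH domain under other names, 37 were tested, and 3 rose and 6 fell, with a median of -0.56. They included both UNE12 genes and PIF3, a phytochrome partner (Rru03G009480), which fell by 1.34 ± 0.26.

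Genes with the same description did not always move together. In 12 descriptions 2 or more members were tested, and in 5 of these the members had log2 fold changes of opposite sign in HA1 against CK. These were MYC2, bHLH30, bHLH93, bHLH94 and bHLH130. In the bHLH30 pair the opposite changes both passed. The 4 bHLH25 and the 4 bHLH126 genes were all higher on average in HA1, by 0.85 to 2.88 and by 0.81 to 4.70.

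Setting HA2 against CK shows the response when 60% of the salt is replaced. No member passed edgeR, and 1 of all 25260 genes did (0.00396%). At an unadjusted p under 0.05 there were 29 members (44.6%), against 20.7% of all genes, and groups did not overlap in 17 (26.2%), against 21.8%. DESeq2 called 16 of 62 members (25.8%), 12 higher and 4 lower, against 9.3% of all genes it tested. The median log2 fold change of the members was 0.16 and that of all genes -0.03. By p-value the leading members were bHLH30 (Rru05G009140), at 79.9, 55.1 and 16.7 CPM in HA2, bHLH93 (Rru02G024250), at 4.09, 4.63 and 8.40, and bHLH47. For bHLH30 the log2 fold change was 2.17 ± 0.49 and for bHLH93 -1.85 ± 0.47, each with an edgeR adjusted p of 0.132 and no overlap with CK. bHLH128 (Rru04G022120), at 76.04, 96.2 and 58.0 CPM, and bHLH62 (Rru04G024810), at 27.7, 19.5 and 33.8, did not overlap with CK either, with log2 fold changes of 0.84 ± 0.22 and -0.95 ± 0.25 (edgeR adjusted p = 0.134 for each).

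Without HA2 replicate 3, 15 of 66 tested members passed edgeR in HA2 against CK (22.7%), against 7.11% of all genes. The 9 higher members were 3 bHLH126 genes, bHLH30 (Rru05G009140), bHLH121 (Rru06G002880), bHLH25 (Rru07G001050), bHLH162 (Rru02G038920), MYC3 (Rru07G008780) and bHLH128 (Rru04G022120). bHLH30 then stood at a log2 fold change of 2.59 ± 0.27 (edgeR adjusted p = 0.00631). bHLH121 stood at 1.83 ± 0.21 (edgeR adjusted p = 0.00846), against 1.44 ± 0.41 (0.138) with all libraries. For bHLH93, bHLH128 and bHLH62 the values without that library were -2.24, 1.00 and -1.15, with edgeR adjusted p of 0.0396, 0.0304 and 0.0418. bHLH47 stood at 1.08 ± 0.29 and did not pass (edgeR adjusted p = 0.0575). The 6 lower members were bHLH51, bHLH93, bHLH80, bHLH62, bHLH110 and bHLH155. The bHLH51 gene (Rru01G046260) lay at 0.696, 1.08 and 3.70 CPM in HA2 and had the lowest value, -3.19 ± 0.76 (edgeR adjusted p = 0.0459), against -2.14 ± 0.76 (0.175) with all libraries. The bHLH162 gene lay at 100, 33.4 and 7.16 CPM in HA2 and at 4.93, 8.08 and 0.541 in CK, so its replicates 1 and 2 were high and replicate 3 was inside the CK range. Without CK replicate 2 there were 9 calls (13.6% of members), 3 higher and 6 lower, against 5.49% of all genes. Without any 1 of the other 7 libraries there were 0.

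Many, but not all, of the members that rose in HA1 were lower in HA2 replicate 3 than in the other HA2 libraries. These 10 genes were chosen on HA1 and CK, so only their HA2 values are new. Their median, relative to the mean of the 9 libraries on the log2 CPM scale, was 0.87 in the first HA2 library, 0.54 in the second and -0.66 in replicate 3. For the 12 members that fell it was -0.24, -0.24 and 0.42. In bHLH78, by contrast, HA2 replicate 3 was the highest HA2 library, and in bHLH147 and bHLH96 it lay between the others. HA2 replicate 3 lay inside the CK range in 4 of the 10 and in 5 of the 12, replicate 1 in 1 and 3, and replicate 2 in 0 and 1. The HA2 mean lay between those of CK and HA1 in 8 of the 10 and in all 12, and HA2 shares the CK libraries with that comparison. Choosing genes for a wide gap between CK and HA1 favours such a place for HA2. These counts were not made over all genes that passed, so they describe the chosen genes only.

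HA2 set against HA1 compares the larger replacement with the smaller. No member passed edgeR, and none of all 25260 genes tested did (0.0%). There were 12 members with an unadjusted p under 0.05 (18.5%), against 16.1% of all genes, and 15 without overlap (23.1%), against 24.3%, so the members stood near the background. Of those 15, 10 were higher in HA2 (15.4%, against 10.1%) and 5 lower (7.69%, against 14.1%). DESeq2 called 4 of 62 (6.45%), against 4.26% of all genes it tested. These were bHLH30 (Rru04G046650), bHLH68 (Rru02G047880) and bHLH48 (Rru03G028630), which were higher in HA2, and bHLH123 (Rru05G029960), which was lower. bHLH30 lay at 1.97, 1.91 and 2.36 CPM in HA2, above all HA1 values, with a log2 fold change of 1.29 ± 0.29 and an edgeR adjusted p of 0.181. bHLH123 lay at 26.6, 12.8 and 25.3 CPM in the controls, 15.5, 27.3 and 23.5 in HA1, and 12.4, 5.35 and 6.94 in HA2. All HA2 values were below all others, and the log2 fold change against HA1 was -1.42 ± 0.39 (edgeR adjusted p = 0.190). In 3 other members the HA2 libraries also lay outside both other groups: bHLH92 (Rru04G004230) and bHLH167 (Rru07G015040) above them, and MYC4 (Rru04G017510), near the floor, below them. Without HA2 replicate 3 the values of bHLH30, bHLH68, bHLH48 and bHLH123 were 1.18, 0.73, 0.67 and -1.32, and their edgeR adjusted p lay between 0.266 and 0.319. bHLH147, the AIF-type gene, was lower in every HA2 library than in any HA1 library, with -0.70 ± 0.24 (edgeR adjusted p = 0.231), and -0.67 without HA2 replicate 3.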

How the data were processed

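Polyadenylated RNA was read from both ends, 150 bases each, on an Illumina NovaSeq instrument, and reads were analysed on the Biocloud platform, per the labels' protocols. The aligner, the counter, the build and whether strand was used were not given in the sources used here. Files deposited by the authors hold raw counts per gene and library, and FPKM values, which divide by transcript length and depth, per the file headers. FPKM served to compare levels between genes. Group values in FPKM, which lack TMM scaling, are descriptions, and groups were tested on counts. Gene names come from the Swiss-Prot column. None (0) of the gene IDs matched the RefSeq gene table, so no sequence or coordinate is shown.

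The tests used edgeR 4.0.16 (R 4.3.3): filterByExpr, TMM scaling, and a quasi-likelihood fit with 1 mean per group over all 9 libraries. The two-sided p-values of 25260 genes were adjusted by Benjamini-Hochberg and judged at 0.05. The SE was taken as the size of the log2 fold change divided by the root of F. The precision is set by 3 libraries per group at 33847262 to 42988605 counts. Alternatives were RLE scaling, DESeq2 1.42.0, other filters, only the 6 libraries compared, a replicate block, and leaving out each library. The fit was tested on simulated data.

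Same-numbered libraries of CK and HA2 had correlations of 0.125, 0.112 and 0.317 after group means were removed. Other same-numbered libraries had correlations from -0.297 to 0.068. The labels do not say that numbers pair libraries, and the main fit did not pair them. The replicate block was run as an alternative only. Members, role lists and the rule for named genes were chosen with earlier results of these data known. Named genes were all members past the threshold, 5 by lowest p in comparisons with under 5 passing, the 5 with the highest mean FPKM, and up to 3 genes of each other list. bHLH117, MYC3 and other members outside the rule were named after their values were seen, as were the genes with a bHLH domain under other names. Figures were drawn with matplotlib 3.10.9.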

Additional observations from a re-analysis of the deposited data

How the results depend on the processing

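In HA1 against CK the 22 member calls became 34 with DESeq2 and ranged from 0 (without CK replicate 1) to 31 (without HA2 replicate 3) when libraries were left out. RLE scaling gave 22 member calls and no low-count filter 21, where 21.2% and 13.4% of all genes passed. At least 1 CPM in 3 libraries gave 25 and only the 6 libraries compared 27, where 26.1% and 23.8% of all genes passed. In HA2 against CK the 0 calls became 16 with DESeq2 and ranged from 0 to 15 without single libraries. In HA2 against HA1 they became 4 with DESeq2 and stayed at 0 without any single library. The cause of the difference between the tools was not tested. The member median ranged from -0.01 to 0.20 in HA1 against CK, from 0.01 to 0.14 in HA2 against CK and from 0.05 to 0.21 in HA2 against HA1 without single libraries. With a replicate block 22, 0 and 0 members passed in the 3 comparisons, and in the first 20.6% of all genes passed. In HA1 against CK the block lost bHLH78, bHLH96, bHLH111 and a bHLH126 gene (Rru01G050410). It gained bHLH63, bHLH117, MYC2 (Rru01G037330) and bHLH130 (Rru03G028420). The labels do not say that the numbers pair libraries, and only 3 of the 9 libraries had their highest correlation with a library of the same number. Of the 22 calls in HA1, 18 were kept under every alternative that left no library out and tested them, 3 were kept in 8 of 9 settings that left one out, 10 in 5 to 7 and 9 in at most 4. Members below the filter, with at most 31 counts in all, were too shallow to compare.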
